A study of Caenorhabditis elegans with 7 samples.

Results

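The propionate shunt is the route by which C. elegans breaks down propionate without vitamin B12, and 7 of the 46778 genes in the deposited table belong to it here. The 5 enzymes were acdh-1, ech-6, hach-1, hphd-1 and alh-8, and the 2 regulators were the nuclear hormone receptors nhr-10 and nhr-68. They were taken by gene name, as the enzymes of the shunt and the receptors that switch it on. The set was chosen by measured values too, since the FPKM differences of these genes between WT Late and WT were known when it was drawn up. Their values in that comparison are therefore a description, and no p-value is given for them. Whole N2 animals, the laboratory wild type of this worm, were collected at L4, the last larval stage, after growth on OP50 bacteria from synchronized L1s. The 3 WT libraries came from unselected animals. The 4 WT Late libraries came from animals derived from N2 by 50 or more generations in which only the progeny of day 3 of adulthood were kept. The libraries are labelled as biological replicates, but the sources describe a single selected population and do not state that the 4 came from separately selected lines. The tests below therefore measure the spread between these libraries only.

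Propionyl-CoA arises from valine, isoleucine, methionine, threonine and odd-chain fatty acids, and its accumulation is toxic. With vitamin B12 it is carboxylated and converted to succinyl-CoA in mitochondria. When B12 is short, worms degrade it through the shunt instead. ACDH-1 oxidizes propionyl-CoA to acrylyl-CoA, ECH-6 hydrates that product, HACH-1 releases 3-hydroxypropionate, HPHD-1 oxidizes it to malonic semialdehyde, and ALH-8 turns this into acetyl-CoA. NHR-10 and NHR-68 act together to turn on the shunt genes when propionate persists. Several of these enzymes also work in valine breakdown.

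Levels are given as rescaled FPKM. FPKM is a read count corrected for gene length and library size. In the deposited FPKM the implied library size was 0.675 to 1.79 times the reads on genes. It was lowest in WT Late replicate 4 and highest in WT Late replicate 3, so the deposited values held a scaling beyond the read total. Each library was further divided by its own median-of-ratios factor. Reads on genes lay between 17553893 and 20961698 per library. WT Late replicate 3 stood apart. It had reads on 18490 genes, against 11069 to 16297 in the other libraries, and ribosomal protein genes took 13.2% of its reads, against 24.1% to 35.6%. WT Late replicate 2 also differed, with the fewest genes with a read, 11069. Only 0.777% of its detected genes had 1 to 3 reads, against 4.67% to 12.3% in the other libraries. Across the 13194 genes tested, 112 genes were called, that is, had a Benjamini-Hochberg adjusted p under 0.05 from limma, 88 of them higher and 24 lower in WT Late animals. This is 0.849% of the genes tested. Without WT Late replicate 2, 62 genes were called higher and 17 lower. Without WT Late replicate 3, 361 genes were called higher and 282 lower. Its omission is given below for the fold changes of the 7 genes, the share of acdh-1 and the medians and counts of the gene lists, and the other values include it.

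All 5 enzymes had higher mean levels in WT Late animals, by 10.03-fold for acdh-1, 6.91-fold for hphd-1, 6.81-fold for ech-6, 5.41-fold for hach-1 and 1.86-fold for alh-8. For the enzymes other than alh-8, every WT Late library lay above every WT library. These ratios of means, without WT Late replicate 3, were 10.4 for acdh-1, 8.46 for hphd-1, 8.50 for ech-6, 6.47 for hach-1 and 2.37 for alh-8. The receptor means were 1.97-fold higher for nhr-68 and 1.80-fold higher for nhr-10, but their libraries overlapped between the groups, and without that library the ratios were 1.40 and 1.42. Of the 7 genes, 2 were called, acdh-1 and hach-1, both higher, beside 0.667% of all tested genes called higher. With the groups not overlapping and WT Late higher, there were 4 of the 7, beside 4.67% of all tested genes, and 9.75% of them did not overlap in either direction. A log2 fold change above 1 was found for 4 of the 7, beside 4.09% of all tested genes. The rule drew on this same comparison, so nothing is read from these shares. The median log2 fold change of the 7 genes was 2.29, beside -0.13 over all genes tested.

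**Figure D1:**
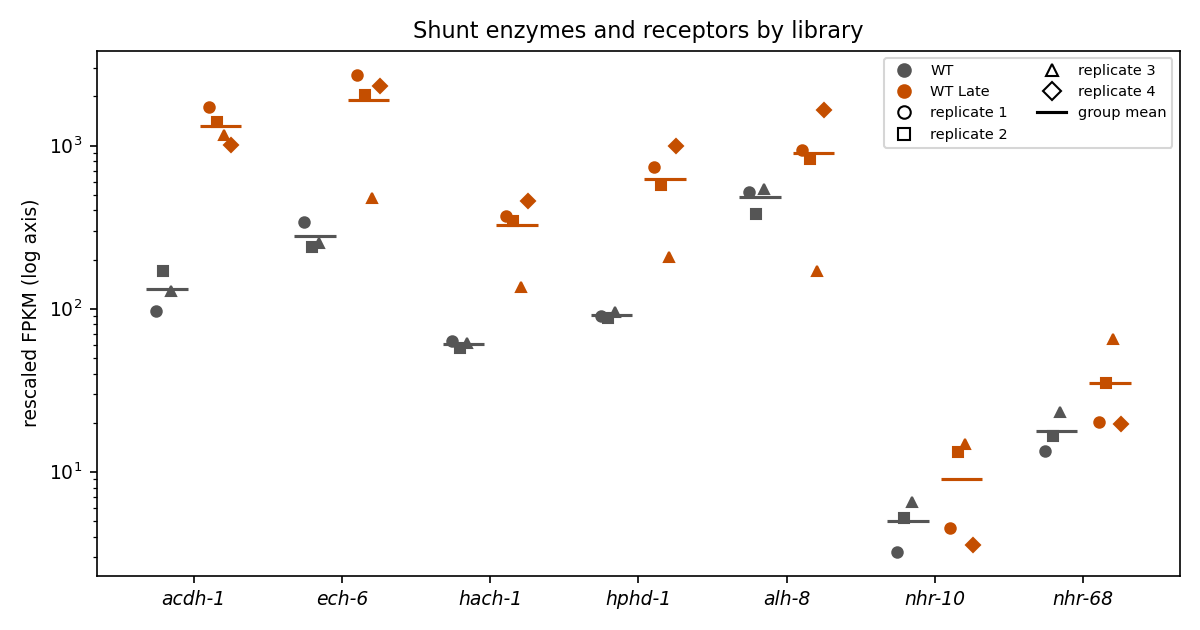
Rescaled FPKM of the 7 genes in each library, on a log axis, with WT libraries in grey and WT Late libraries in orange; symbols mark the replicate and lines the group means. The 4 WT Late values of acdh-1 lie between 1011 and 1725, above WT values of 97.2 to 171, while WT Late replicate 3 is the lowest WT Late library for ech-6, hach-1, hphd-1 and alh-8 and the highest for both receptors.

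The gene acdh-1 (WBGene00016943) encodes the acyl-CoA dehydrogenase that opens the shunt, and its promoter is widely used in worms as a reporter of low vitamin B12. In the deposited coordinates, whose build is not named, it spans 6497436 to 6499560 of chromosome I, plus strand, and its longest annotated transcript has 7 exons. Its rescaled FPKM was 97.2, 171 and 128 in WT replicates 1 to 3 and 1725, 1397, 1157 and 1011 in WT Late replicates 1 to 4. The lowest WT Late library was thus 5.92 times the highest WT library. The group means were 132 ± 36.9 (SD, n = 3) and 1323 ± 312 (SD, n = 4), and the log2 fold change was 3.33 with a standard error of 0.48. With all tested genes ordered from the largest rise to the largest fall in log2 fold change, it stood at place 14. These levels rested on 2545 to 5754 reads in WT libraries and 15182 to 72823 in WT Late libraries. In rescaled FPKM, WT Late replicate 3, which stood apart in other respects, lay within the range of the other WT Late libraries. In reads of this gene it was the highest, at 72823, against 15182 in WT Late replicate 4. The log2 fold change without WT Late replicate 3 was 3.38. The call of acdh-1 was lost without WT replicate 1 and without WT replicate 3, with log2 fold changes of 3.13 and 3.33.

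The gene ech-6 (WBGene00001155) encodes a mitochondrial enoyl-CoA hydratase and spans 9751440 to 9752922 of chromosome III, minus strand. The rescaled FPKM of ech-6 was 341, 240 and 253 in the 3 WT libraries and 2723, 2047, 478 and 2332 in the 4 WT Late libraries. Replicate 3 was therefore only 1.40 times the highest WT library, while the other WT Late libraries were 6.00 to 7.97 times that library. The means were 278 ± 55.0 (SD, n = 3) and 1895 ± 985 (SD, n = 4). The log2 fold change was 2.52 with a standard error of 0.68, and ech-6 was not called. Without WT Late replicate 3 it was 3.09 with a standard error of 0.29, and ech-6 was then called.

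The gene hach-1 (WBGene00017301) encodes the acyl-CoA hydrolase of the shunt, an enzyme that is also the hydroxyisobutyryl-CoA hydrolase of valine breakdown. It spans 5555404 to 5557318 of chromosome III, plus strand. In WT libraries hach-1 was at 62.9, 57.1 and 61.4 rescaled FPKM, a narrow range, and in WT Late libraries at 371, 344, 135 and 458. The lowest WT Late library, again replicate 3, was 2.15 times the highest WT library. The means were 60.5 ± 2.99 (SD, n = 3) and 327 ± 137 (SD, n = 4), with a log2 fold change of 2.29 and a standard error of 0.45. Of the 18 alternatives, hach-1 was called in 7. Among the fits that leave out a library it was called only without WT Late replicate 3, where its log2 fold change was 2.67.

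The gene hphd-1 (WBGene00012608) encodes the hydroxyacid-oxoacid transhydrogenase that oxidizes 3-hydroxypropionate, and spans 12994358 to 12996571 of chromosome II, minus strand. It was the steadiest of the 7 genes among WT libraries, with rescaled FPKM of 90.2, 87.4 and 94.8 and a coefficient of variation of 4.14%. In the WT Late libraries it was at 743, 572, 206 and 990. Replicate 3 stood at 2.17 times the highest WT library and the others at 6.03 to 10.4 times. The means were 90.8 ± 3.76 (SD, n = 3) and 628 ± 330 (SD, n = 4), and the log2 fold change was 2.57 with a standard error of 0.53. The gene fell just outside the threshold for a call, was called in 7 of the 18 alternatives, and had a log2 fold change of 3.04 without WT Late replicate 3.

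The gene alh-8 (WBGene00000114) encodes the mitochondrial semialdehyde dehydrogenase that closes the shunt and also serves valine breakdown. It spans 11728949 to 11731226 of chromosome II, plus strand. Levels of alh-8 in rescaled FPKM were 521, 383 and 545 in WT libraries and 940, 830, 170 and 1660 in WT Late libraries. The groups overlapped, since replicate 3 was below every WT library, at 0.311 times the highest, while the other 3 WT Late libraries were above all of them. The means were 483 ± 87.5 (SD, n = 3) and 900 ± 610 (SD, n = 4). The log2 fold change was 0.52 with a standard error of 0.72, and 1.19 with a standard error of 0.33 without replicate 3. The gene was called in neither fit nor in any other alternative.

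**Figure D2:**
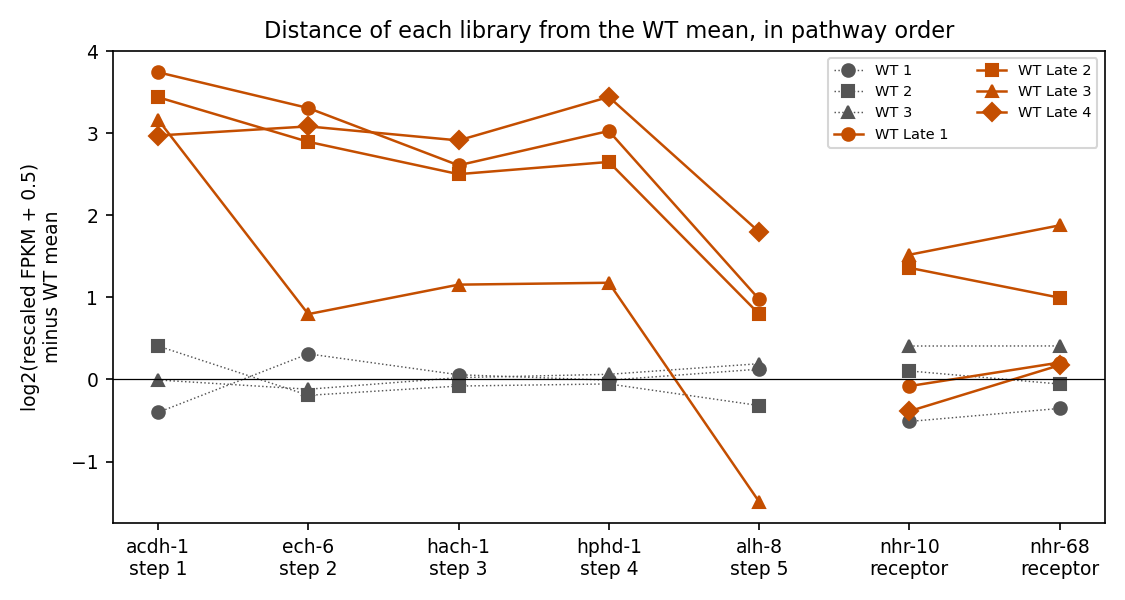
Distance of each library from the WT mean on the log2(rescaled FPKM + 0.5) scale, with the enzymes in pathway order and the receptors to the right; WT Late libraries are joined by solid orange lines and WT libraries by dotted grey lines. WT Late replicates 1, 2 and 4 lie between 2.50 and 3.74 above the WT mean for the enzymes from acdh-1 to hphd-1 and between 0.80 and 1.80 above it for alh-8, while replicate 3 falls from 3.17 at acdh-1 to between 0.80 and 1.18 at the following enzymes and -1.49 at alh-8.

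The receptor genes were much lower in level than the enzymes. The gene nhr-68 (WBGene00003658), which is itself turned on by NHR-10 in the known circuit, spans 11573440 to 11575709 of chromosome V, plus strand. Levels of nhr-68 in rescaled FPKM were 13.5, 16.7 and 23.2 in WT libraries and 20.1, 35.1, 65.1 and 19.6 in WT Late libraries. WT Late replicates 2 and 3 were above every WT library, and replicates 1 and 4 were inside the WT range. The log2 fold change was 0.81 with a standard error of 0.44, and it was 0.46 without WT Late replicate 3.

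The gene nhr-10 (WBGene00003609), the receptor at the head of that circuit, spans 7112300 to 7115438 of chromosome III, minus strand. Levels of nhr-10 in rescaled FPKM were 3.23, 5.21 and 6.55 in WT libraries and 4.53, 13.1, 14.7 and 3.57 in WT Late libraries. As for nhr-68, replicates 2 and 3 lay above all WT libraries and replicates 1 and 4 among them. The log2 fold change was 0.60 with a standard error of 0.53, and it was 0.30 without WT Late replicate 3. Reads of nhr-10 were fewest in WT Late replicate 4, at 57, and most in WT Late replicate 3, at 987. Its lowest value, 3.23 in WT replicate 1, rested on 90 reads. Neither receptor was called, in this fit or in any of the 18 alternatives. The ratio of nhr-68 to nhr-10 in FPKM lay between 3.20 and 4.17 in WT libraries and between 2.67 and 5.51 in WT Late libraries, so it overlapped. In rescaled FPKM, the 2 WT Late libraries that were highest for the receptors were not the highest for any enzyme. In FPKM as deposited, replicate 3 was the highest WT Late library for acdh-1 as well, at 1593 against 858 to 1525. Replicate 4, with both receptors in the WT range, had the highest values of hach-1, hphd-1 and alh-8. These libraries also differed at large. The 78 cytosolic ribosomal protein genes had a median log2 distance from the WT mean of 1.26 in WT Late replicate 4 and -2.23 in WT Late replicate 3. In WT Late replicates 1 and 2 it was 0.25 and 0.55. The part of such differences in the receptor and enzyme values was not tested.

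In WT animals the order of levels per kilobase was alh-8, ech-6, acdh-1, hphd-1, hach-1, nhr-68 and nhr-10, and the WT libraries of neighbours in this order did not overlap. In WT Late animals the order of means was ech-6, acdh-1, alh-8, hphd-1, hach-1, nhr-68 and nhr-10. There the ranges of ech-6 and acdh-1, of acdh-1 and alh-8, and of alh-8 and hphd-1 overlapped, and each of these pairs had the stated order in 3 of 4 libraries, so this order did not exceed the spread. The ranges of hphd-1 and hach-1 also overlapped across libraries, but hphd-1 was the higher in each of the 4 WT Late libraries, by 1.52 to 2.16 times. The enzymes remained above both receptors in all 7 libraries.

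The make-up of the enzyme transcripts also differed between the groups, and a share within a library does not depend on the scaling between libraries. Of the summed FPKM of the 5 enzymes, alh-8 made up 46.8%, 40.8% and 50.4% in WT libraries and 14.5%, 16.0%, 7.91% and 25.7% in WT Late libraries. Every WT Late share was below every WT share. The share of acdh-1 was 8.74%, 18.2% and 11.8% in WT libraries and 26.5%, 26.9%, 53.9% and 15.7% in WT Late libraries, so that WT Late replicate 4 lay inside the WT range. Its mean was 12.9% ± 4.82 (SD, n = 3) and 30.8% ± 16.3 (SD, n = 4), and the latter was 23.0% without WT Late replicate 3. By contrast, hach-1 held between 5.65% and 6.09% in WT libraries and between 5.70% and 7.09% in WT Late libraries, ranges that overlapped. The ratio of ech-6 to hphd-1 also overlapped, with 2.67 to 3.79 in WT and 2.32 to 3.67 in WT Late libraries. The summed rescaled FPKM of the enzymes was 938 to 1112 in WT libraries and 2146 to 6502 in WT Late libraries.

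**Figure D3:**
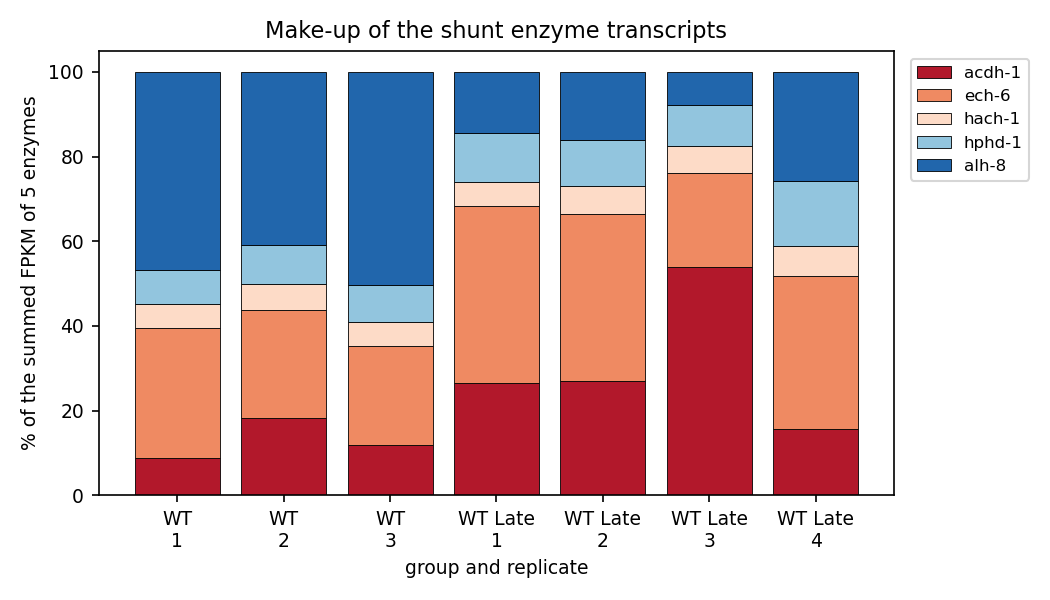
Share of each enzyme in the summed FPKM of the 5 shunt enzymes, 1 bar per library. The alh-8 segment takes 40.8% to 50.4% in the WT libraries and 7.91% to 25.7% in the WT Late libraries, and the acdh-1 segment reaches 53.9% in WT Late replicate 3.

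WT Late replicate 3 had 0.840 times the mean of the other WT Late libraries for acdh-1, but 0.346 times for hach-1, 0.268 times for hphd-1, 0.202 times for ech-6 and 0.149 times for alh-8. The receptors went the other way, at 2.08 times for nhr-10 and 2.61 times for nhr-68. The same ratio had a median of 0.330 over the 1445 tested genes at 50 rescaled FPKM or more in WT, 0.932 over 5047 genes from 5 to 50 and 1.70 over 6600 genes below 5. Abundant genes were thus low in this library and scarce genes high. Of the 1445 abundant genes, 12.2% had a ratio as high as acdh-1 or higher, while the ratios of the other enzymes were near or below the median of these genes. The part of this library-wide difference in the values of the enzymes and receptors was not tested. In whole animals, more cells of a type and more RNA per cell cannot be told apart. The shunt is known mainly from the intestine and hypodermis, and the 8 intestinal markers, all detected, had log2 fold changes with a median of -0.07 and summed to 5834 to 8819 rescaled FPKM in WT and 1598 to 18473 in WT Late libraries. None of them was called by limma or limma voom, beside 0.849% of all tested genes called by limma, and 0 had an unadjusted p under 0.05. Their log2 fold changes ran from -0.68 to 0.38, with 3 positive and 5 negative. For 1 of the 8, every WT Late library lay below every WT library. The intestinal median was 0.38 without WT Late replicate 3, again with 0 called. The intestinal regulator elt-2, 1 of these 8 markers, had means of 11.3 ± 3.40 (SD, n = 3) for WT and 11.5 ± 4.12 (SD, n = 4) for WT Late libraries.

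The other markers of tissue and stage also moved with the groups in part. Beside the counts below, 0.667% of all tested genes were called higher and 0.182% lower. Of 7 hypodermal markers, dpy-7 and dpy-10, cuticle collagens made around the molts, were called higher, with log2 fold changes of 2.96 and 2.68, and dpy-10 lost its call without WT replicate 1. The median of the hypodermal list was 0.40, and 0.90 without WT Late replicate 3. Of its 7 genes, 2 had negative log2 fold changes, the lowest at -1.15. The hypodermal list summed to 1460 to 1752 rescaled FPKM in WT and 446 to 2625 in WT Late libraries. Of 6 yolk protein genes, which the intestine turns on as animals mature, 5 were called lower and the median was -3.54, with sums of 818 to 2531 in WT and 153 to 389 in WT Late libraries. The call of vit-6 was lost in 10 of 18 alternatives and that of vit-5 in 4, both without WT replicate 1 and without WT replicate 3, while vit-1, vit-3 and vit-4 were called in all 18. Of 4 body wall muscle, 5 neuronal, 5 germline, 33 sperm and 78 cytosolic ribosomal protein genes tested, 0 were called by limma, with medians of -0.60, 0.04, -0.93, -0.38 and -0.02. At an unadjusted p under 0.05 there were 1 muscle and 2 germline genes and 0 of the others, and limma voom called 0 of them. Without WT Late replicate 3 these medians were -0.24, 0.63, -1.27, 0.04 and 0.69, with 1 germline gene called lower and 0 others called, and 3 hypodermal genes were called higher and 6 yolk genes lower. With all libraries, log2 fold changes were negative for all 5 germline genes and 30 of 33 sperm genes, beside 7707 of 13194 tested genes. For 2 germline genes and 1 muscle gene, every WT Late library lay below every WT library, beside 671 of all tested genes. The part of a difference in developmental moment in the shunt values was not tested.

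The B12-dependent propionate pathway, which competes for the same substrate, was described as a list of 7 genes, with no test of the list. This list and the linked lists below were chosen with earlier results of these data known. Beside them, 0.667% of all tested genes were called higher and 0.182% lower. Without WT Late replicate 3, 361 of 12640 tested genes were called higher. Of the 7 genes of this list, 2 were called higher, 0 were called lower, and the median log2 fold change was 0.66. The called genes were cblc-1, which processes cobalamin, from 9.05 ± 3.07 (SD, n = 3) to 41.2 ± 2.11 (SD, n = 4) rescaled FPKM, and mmaa-1, which loads it onto the mutase, from 8.04 ± 3.41 (SD, n = 3) to 32.8 ± 8.14 (SD, n = 4). Their log2 fold changes were 2.17 and 2.02, with adjusted p-values of 0.00747 and 0.0287 from limma. The enzymes that carry the flux itself were not called. The propionyl-CoA carboxylase genes pcca-1 and pccb-1 had log2 fold changes of -0.34 and -0.38, and the mutase gene mmcm-1 had -0.08. The epimerase gene mce-1 had 0.66, with 23.5, 19.7 and 27.8 rescaled FPKM in WT libraries and 44.9, 40.4, 35.1 and 30.7 in WT Late libraries, which did not overlap. The list had 2 genes called higher and a median of 0.69 without WT Late replicate 3. The call of cblc-1 was lost without WT replicate 2 or 3, and that of mmaa-1 in 9 of 18 alternatives, which include each library left out except WT replicate 2 and WT Late replicate 3.

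The methionine and S-adenosylmethionine (SAM) cycle, whose methionine synthase also needs B12, had 3 of 14 genes called higher, 0 lower and a median of 0.96. The methionine synthase gene metr-1 rose from 10.7 ± 3.21 (SD, n = 3) to 79.0 ± 20.1 (SD, n = 4) rescaled FPKM, by 2.82 on the log2 scale (limma, adjusted p = 0.00360). The gene of its reactivating enzyme, mtrr-1, rose from 14.1 ± 3.00 (SD, n = 3) to 143 ± 45.0 (SD, n = 4), by 3.27 on the log2 scale (limma, adjusted p = 0.00245). Both remained called in all 18 alternatives. The methylenetetrahydrofolate reductase gene mthf-1 had a log2 fold change of 2.02 with an adjusted p of 0.0441 from limma and lost its call in 11 of 18 alternatives, which include each library left out except WT Late replicate 3. Of the 14 genes, 7 were called higher without WT Late replicate 3, with a median of 1.13. The cystathionine beta-synthase genes cbs-1 and cbs-2 had log2 fold changes of -1.43 and -1.21 and were not called. The groups did not overlap for cbs-1, with 6.85, 7.82 and 11.1 rescaled FPKM in WT libraries. Its WT Late libraries were at 2.87, 4.49, 2.04 and 2.32.

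Of 7 linked receptors and cofactors, nhr-114 was called higher. NHR-114 is the receptor known to act on the methionine cycle genes when B12 is low, in place of NHR-10 and NHR-68. It rose from 12.9 ± 1.62 (SD, n = 3) to 67.8 ± 17.6 (SD, n = 4) rescaled FPKM, by 2.32 on the log2 scale (limma, adjusted p = 0.00678). Its call was lost in 1 of 18 alternatives, without WT replicate 1. The Mediator subunit gene mdt-15, a cofactor of acdh-1 transcription, had -0.90 and was not called. The median of the list was 0.13, and 0.17 without WT Late replicate 3, where 1 gene was again called.

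Genes from the same enzyme families were counted too, beside 0.849% of all tested genes called. At that share, lists of this size can hold 0 called genes, so nothing is read from such counts. Of 12 other acyl-CoA dehydrogenase genes, acdh-2 was called higher, from 0.239 ± 0.182 (SD, n = 3) to 9.62 ± 3.84 (SD, n = 4) rescaled FPKM, a log2 difference of 3.72 (limma, adjusted p = 0.00360). Its level in WT was below the pseudocount of 0.5, so that the size of this change depends on it. None of the 9 other enoyl-CoA hydratase genes and none of the 11 other aldehyde dehydrogenase genes tested was called by limma, with ranges of -1.43 to 0.39 and -0.38 to 0.66. The 11 genes of branched-chain amino acid breakdown outside the shunt also had 0 called, with a median of 0.19 and a range of -0.26 to 0.97. Over these 3 lists limma voom called 0 genes, and 1 gene, a hydratase gene, had an unadjusted p under 0.05. Of 157 other nuclear hormone receptor genes tested, nhr-114 and nhr-156 were called higher and 0 lower, and the median was 0.06. Without WT Late replicate 3, 1 branched-chain gene and 2 acyl-CoA dehydrogenase genes were called higher, 0 hydratase and 0 aldehyde dehydrogenase genes were called, and the receptor family had 2 called higher and a median of -0.05.

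**Figure D4:**
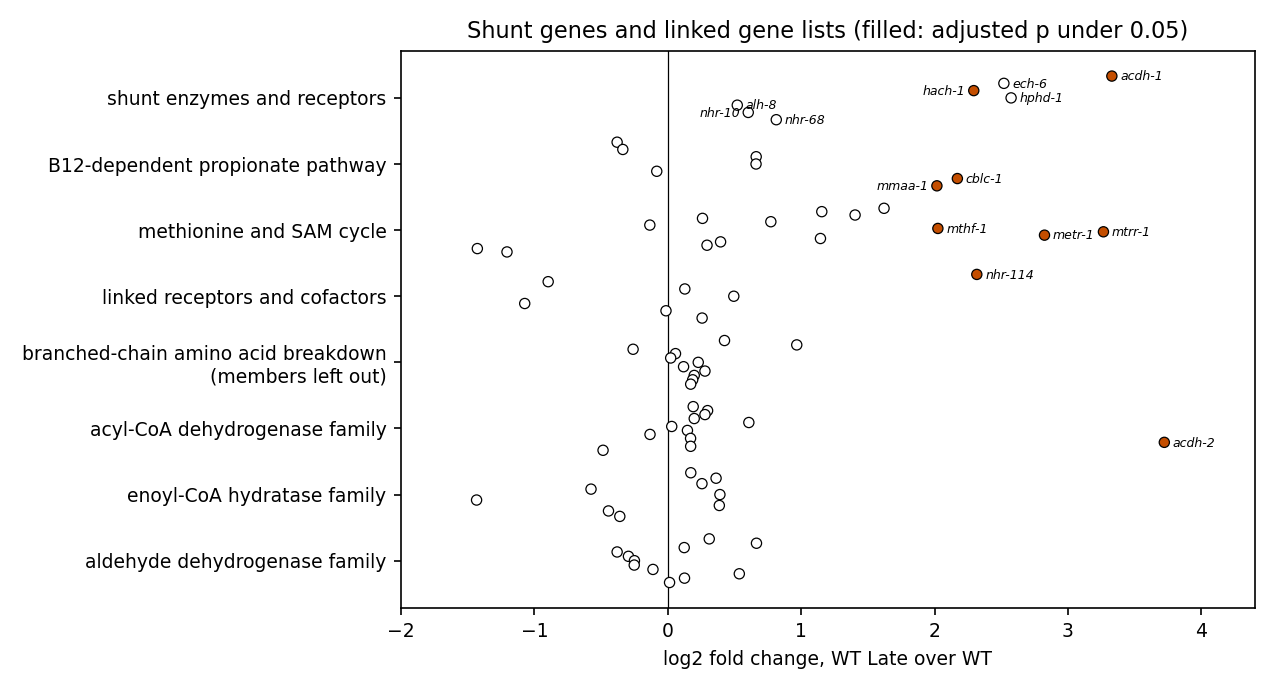
Log2 fold change of WT Late over WT for the 7 shunt genes and for tested genes of 7 linked lists, 1 point per gene, filled in orange where the adjusted p from limma was under 0.05. The called genes of the linked lists lie between 2.02 and 3.72, all higher in WT Late animals, and the branched-chain amino acid, hydratase and aldehyde dehydrogenase lists hold no called gene.

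The tested genes nearest to acdh-1 were found by the root mean square difference of their log2 distances from the WT mean over the 7 libraries. They were mtrr-1 at 0.180, C53A3.2 at 0.331, pmp-5 at 0.336, DH11.2 at 0.385 and srh-237 at 0.389. Genes found in this way share the group difference of acdh-1 by construction, so their separation of the groups is not a separate result. The gene mtrr-1 was at 10.7, 16.5 and 15.2 rescaled FPKM in WT libraries. It was at 195, 166, 97.0 and 116 in WT Late libraries, with replicate 3 the lowest of these. The gene pmp-5, of the peroxisomal ABC transporter family, was at 13.02, 20.9 and 11.1 in WT and 159, 123, 116 and 169 in WT Late libraries. The other enzymes were farther from acdh-1, at 0.901 for hphd-1, 0.975 for hach-1, 1.00 for ech-6 and 2.34 for alh-8. Of the 13194 genes tested, 65 others were nearer to acdh-1 than hphd-1, the nearest of the enzymes. These distances include WT Late replicate 3, where acdh-1 was 3.17 above its WT mean on the log2 scale. In that library hphd-1 was 1.18 above its own WT mean, hach-1 1.15 and ech-6 0.80. The receptors were at 2.01 for nhr-68 and 2.18 for nhr-10.

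**Figure D5:**
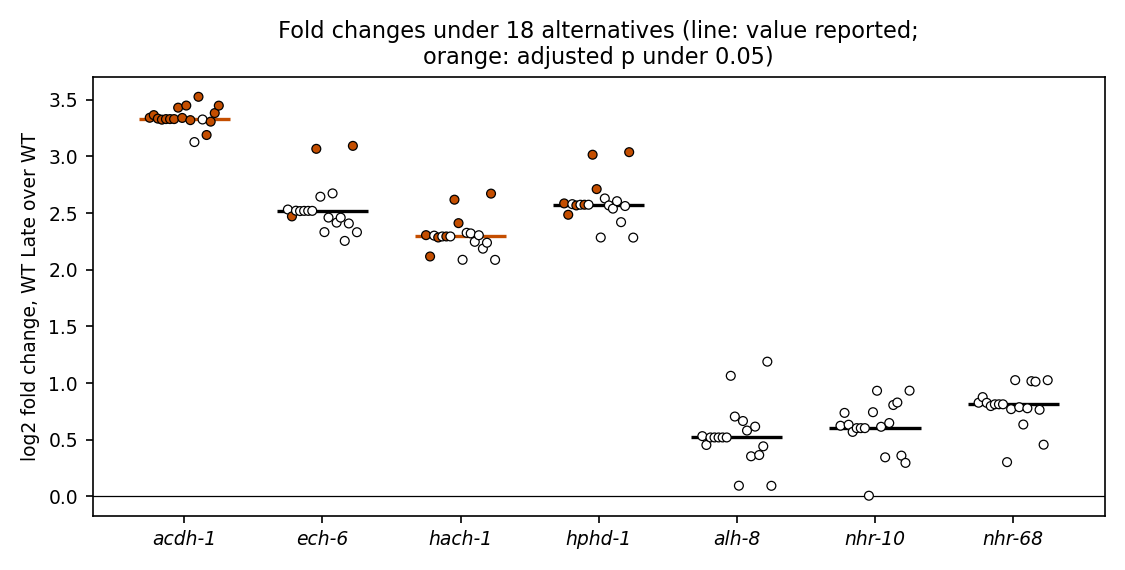
Log2 fold change of the 7 genes under 18 alternatives of the processing, 1 point per alternative, with a line at the value reported; orange marks an adjusted p under 0.05 from limma. The values of acdh-1 lie between 3.13 and 3.53, those of alh-8 between 0.09 and 1.19, and those of nhr-10 between 0.01 and 0.93.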

How the data were processed

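RNAseq of 3 WT and 4 WT Late libraries was used. The study gives N = 3 for its RNAseq without naming libraries, and all 4 deposited WT Late libraries were kept. The authors state that read counts were reported by Novogene; the aligner, the counter and the build used were not given in the sources used here. They deposited FPKM, 1 column per library. They were whole multiples of a step per library within 0.02 of a step for 100% of the nonzero values, so reads could be recovered. Coordinates are the deposited ones. Exons were counted in Ensembl release 115 (WBcel235), where 99.99% of the 46603 shared gene identifiers overlap their deposited place on the same strand.

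Each library was divided by its median-of-ratios factor (0.848 to 1.38). The log2 of the quotient plus a pseudocount of 0.5 was analysed in limma 3.58.1 (R 4.3.3) with a variance trend, keeping genes that reached an FPKM of 0.5 in 3 or more libraries. Genes were called at a Benjamini-Hochberg adjusted p under 0.05, the study's threshold. Log2 fold changes understate those of low genes. The procedure was tested on simulated data. The 18 alternatives were other scalings, pseudocounts, filters and variance models, library weights, a replicate block, limma voom on recovered reads, removal of a length trend, and each library left out.

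The members and lists were chosen with earlier results of these data known. Named are the 7 members, called genes of the lists with up to 3 others, and the 5 genes nearest to acdh-1. The gene mccc-2 of the branched-chain list was not matched by symbol.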

Additional observations from a re-analysis of the deposited data

How the results depend on the processing

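The log2 fold changes of the 7 genes kept their direction under all 18 alternatives and moved by less than the spread within groups. Over the libraries left out they lay between 3.13 and 3.53 for acdh-1, 2.25 and 3.09 for ech-6, 2.09 and 2.67 for hach-1, 2.28 and 3.04 for hphd-1, 0.09 and 1.19 for alh-8, 0.30 and 0.93 for nhr-10, and 0.46 and 1.03 for nhr-68. Of the 7 genes, the 2 called became 4 after quantile normalization and with library weights, where ech-6 and hphd-1 joined, and 1, acdh-1, with a pseudocount of 0.1, no filter, no variance trend or the length trend removed. With each library left out, 0 to 4 were called, 0 without WT replicate 1 or 3 and 4 without WT Late replicate 3. Over all genes, 42 were higher and 9 lower with no filter, 500 and 558 with library weights, and 43 were lower after quantile normalization. With each library left out the counts were 23 to 361 higher and 5 to 282 lower, most without WT Late replicate 3. The replicate block left 1 of the 7 genes called, acdh-1, with 67 genes higher and 32 lower. No WT library is numbered 4, so this fit came near to leaving out WT Late replicate 4. The log2 fold changes in the 2 fits were 3.448 and 3.447 for acdh-1 and 0.095 and 0.094 for alh-8. Same-numbered libraries of the groups had correlations of deviations of 0.24, -0.09 and -0.18 for replicates 1, 2 and 3, which showed no common pairing. The causes of these changes were not tested. The median of all genes was -0.13, and -0.01 after quantile normalization. The receptors rest on as few as 57 reads in a library.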

Other observations

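The genes beside the shunt genes on their chromosomes were not called by limma, beside 0.849% of all tested genes called. At that share, no call among so few genes is not a result about them. The 12 neighbouring protein-coding genes tested, of 14, had log2 fold changes between -0.74 and 1.04. The gene T05G5.5, which starts 7 bases from ech-6 on the same strand, had 1.04 with a standard error of 0.42, at 11.9 rescaled FPKM in WT and 26.5 in WT Late animals. The gene C55B7.3 overlaps acdh-1 on the same strand and was at 7.19 and 12.8, with a log2 fold change of 0.82, and F13D12.8 overlaps alh-8 on the other strand and was at 11.5 and 14.7. Both overlapping genes were far below the shunt genes in level. Reads in an overlap could be shared between the 2 genes, in either direction, and this was not tested. The gene rpc-2, which lies 25 bases from hach-1 on the same strand, had -0.20.

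The gene nhr-156, the other nuclear hormone receptor gene called higher, rose from 0.734 ± 0.302 (SD, n = 3) to 7.56 ± 1.86 (SD, n = 4) rescaled FPKM, by 2.71 on the log2 scale (limma, adjusted p = 0.00868). Its call was lost in 3 of 18 alternatives, with limma voom on the recovered reads and when replicate 1 of either group was left out.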
